A study of Mus musculus with 12 samples.

Results

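The probes described here are single array probes that stood apart from their neighbours along the chromosome in all 4 tumours of the C57BL/6J background. A probe was taken when its log2 ratio of tumour to reference differed by 0.5 or more, in the same direction in all 4 of these tumours, from the median of the 21 probes around it. Of 40726 autosomal probes, 586 met this rule (1.44%). Of these, 333 lay above their neighbours (0.818% of autosomal probes) and 253 lay below them (0.621%). They are called raised and lowered probes. The members were chosen by their deviations in the 4 C57BL/6J tumours, so those values are given as a description with no test. "Deviation" below always means the log2 ratio of 1 probe minus the median of its 21-probe window.

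On each array, Cy5-labelled DNA of cells cultured from a malignant peripheral nerve sheath tumour (MPNST) was set against Cy3-labelled DNA of Schwann cells from wild-type mice. All tumours came from mice carrying the P0-GGFβ3 transgene, in which GGFβ3, an isoform of neuregulin-1, is made in Schwann cells. The C57BL/6J group held 4 tumours, B86, B91, B96 and B76. The mixed group, of C57BL/6J x SJL/J background, held 7 tumours: A18, 231 Trig and A202 on slide 1, then A390, A292, A382 and A394 on slides 2 and 3. A382 was measured at passages 8 and 9 and averaged to 1 value. The reference cells are labelled as non-neoplastic, wild-type and of strain C57BL/6J on all 12 arrays. Tumour cells were grown from explants in medium with forskolin and neuregulin-1 and then without both, whereas the reference cells were kept in both throughout. The titles of 10 tumours give a passage, from 5 to 13, and ages of the mice were not given in the sources used here.

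In array comparative genomic hybridisation, 2 DNA samples compete for the same oligonucleotide probe, and the ratio of the dyes follows the ratio of DNA bound. A copy number change over a stretch of chromosome moves neighbouring probes together. A single probe can also move when its own target differs in sequence, in a restriction site or in a short deletion or duplication between the DNAs, because a mismatch weakens binding. Inbred mouse strains such as C57BL/6J and SJL/J differ at many such places, and a cross between them hands each animal its own set of chromosome segments. Which of these applies to a probe below was not tested.

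The probe sequences that carry the main patterns are shown here as the array files give them, with coordinates in mm9. Strand is not given in the sources used here, and no letters are marked, so all stand in lower case.

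The first 4 probes were far above their neighbours in the C57BL/6J tumours and either high or near 0 in single mixed tumours.

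unnamed, chr1:154044904-154044963: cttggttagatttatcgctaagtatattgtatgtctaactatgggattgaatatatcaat

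Mzt1, chr14:99443869-99443928: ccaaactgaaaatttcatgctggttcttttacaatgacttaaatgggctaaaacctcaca

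unnamed, chr12:31341023-31341082: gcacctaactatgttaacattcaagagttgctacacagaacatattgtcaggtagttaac

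Acyp2, chr11:30435608-30435667: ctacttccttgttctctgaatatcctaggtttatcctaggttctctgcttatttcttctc

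Lrrk1 and Triml1 were raised in the C57BL/6J tumours and far below their neighbours in some mixed tumours.

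Lrrk1, chr7:73463240-73463299: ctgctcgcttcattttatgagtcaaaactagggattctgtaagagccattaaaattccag

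Triml1, chr8:44221009-44221068: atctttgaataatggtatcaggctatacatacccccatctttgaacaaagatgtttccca

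Dhdds and Adra2c were lowered in every tumour of both groups, Tom1l1 mainly in the C57BL/6J group, and Itln1 and Cd244a lie in the longest run of lowered probes.

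Dhdds, chr4:133536539-133536598: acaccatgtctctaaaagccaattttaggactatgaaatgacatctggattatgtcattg

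Adra2c, chr5:35621215-35621268: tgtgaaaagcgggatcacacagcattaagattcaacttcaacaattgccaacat

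Tom1l1, chr11:90535960-90536019: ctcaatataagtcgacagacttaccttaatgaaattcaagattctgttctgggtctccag

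Itln1, chr1:173459315-173459374: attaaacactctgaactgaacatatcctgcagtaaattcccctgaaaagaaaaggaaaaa

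Cd244a, chr1:173493944-173494003: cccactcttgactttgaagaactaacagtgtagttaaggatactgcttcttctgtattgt

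The raised probes had a median C57BL/6J mean deviation of 0.80, and 93 of them reached 1 or more, 20 reached 2 or more and 8 reached 3 or more. They scattered over all 19 autosomes, and the next probes on either side had a median deviation of 0.01. In the mixed tumours, which the rule did not use, 168 of the 333 (50.5%) passed limma's test against 0 on the positive side, with an adjusted p under 0.05 and a mean of 0.5 or more. Over all autosomal probes 331 did so (0.813%). Another 14 passed on the negative side, as 492 of all autosomal probes did (1.21%), and 151 did not pass, of which 81 had an adjusted p under 0.05 with a smaller mean. With no minimum size, 10486 of the 40726 autosomal probes were called higher and 10713 lower, so an adjusted p under 0.05 was common by itself. The reference is on every array, so an offset of the reference recurs in both groups and its own spread is not part of this test.

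Some raised probes were high in every tumour. The 3 probes of the cDNA AK155119 on chromosome 11 (116615844 to 116616804), of which the first 2 overlap in sequence, were above their neighbours in all 11 tumours. With normexp the second fell under the size minimum (0.48). Their mixed means were 2.90 ± 0.83, 2.08 ± 0.67 and 1.63 ± 0.14 (SD, n = 7), with limma adjusted p of 2.56e-05, 4.47e-05 and 5.22e-07. The first of them stood at 3.39, 3.75, 3.82 and 4.13 in A18, 231 Trig, B86 and A202, which share slide 1 and were read on another scanner. It stood between 2.12 and 2.38 in the other 7 tumours. The part of the slide in that split was not tested. Klra22, a Ly49 receptor gene of natural killer cells, had 1.83, 1.60, 1.70 and 1.62 in the C57BL/6J tumours and 1.07 to 2.64 in the mixed ones (mean 1.61 ± 0.51, SD, n = 7, limma adjusted p 4.22e-05). In an unnamed stretch of chromosome 11 (42187382 to 42187441) 1 probe stood at 3.62, 3.34, 3.70 and 2.97 in the C57BL/6J tumours. The same probe reached 3.03 to 3.67 in 6 mixed tumours and only 1.13 in 231 Trig (mean 3.12 ± 0.90, SD, n = 7, limma adjusted p 2.73e-05).

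Many of the strongest raised probes instead divided the mixed tumours into high and low ones. At Mzt1, a component of the gamma-tubulin ring complex, the C57BL/6J tumours had 3.67 (B86), 3.36 (B91), 3.28 (B96) and 3.35 (B76). Of the mixed tumours, A202 (3.95), A390 (3.70) and A394 (2.52) were high, whereas A18 (-0.36), 231 Trig (0.00), A292 (-0.18) and A382 (-0.28) lay at the level of their neighbours. The mixed mean of 1.34 ± 1.97 (SD, n = 7) did not pass (limma adjusted p 0.0824), and no tumour lay near that mean. With normexp background correction it was 0.73 and passed (limma adjusted p 0.0330). The unnamed chromosome 1 probe at 154044904 had 3.12, 3.96, 4.23 and 4.71 in B86, B91, B96 and B76. It was 0.28 in A18 and -0.02 in A390 but 2.14 to 4.28 in the other 5 mixed tumours (mean 2.39 ± 1.72, SD, n = 7, limma adjusted p 0.00368). Here the high mixed values overlapped the C57BL/6J range and the low ones were far from it. At chr12:31341023-31341082 only A18 was low, at 0.00, against 2.49 to 3.00 in the other 6 mixed tumours and 3.03 to 3.24 in the C57BL/6J group.

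Acyp2, an acylphosphatase gene, had 3.48, 2.78, 2.89 and 2.62 in B86, B91, B96 and B76. It had 1.88 in A18, 2.18 in 231 Trig and 1.94 in A394, and -0.24 to 0.14 in A202, A390, A292 and A382. A394 was high here and at Mzt1, whereas the other tumours changed places, except A292 and A382, which were low at both. The mixed mean of 0.82 ± 1.11 (SD, n = 7) did not pass (limma adjusted p 0.0609). It passed without A292 (mean 0.98, limma adjusted p 0.0469), without A382 (1.00, 0.0393), with an 11-probe window (0.85, 0.0479) and with loess (0.89). The cDNA AK011836 on chromosome 12 had 2.91 to 3.76 in the C57BL/6J tumours and spread from -2.27 in A18 to 2.95 in A394, with 231 Trig at 2.14 and A292 at 1.57 (mixed mean 0.44 ± 1.85, SD, n = 7, limma adjusted p 0.520).

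To describe this division over all strong probes, each mixed value was expressed relative to the C57BL/6J mean of the same probe, for probes with a C57BL/6J mean of 1 or more in size. This summary was chosen after the values were seen. Over 93 raised probes and 650 values, 220 (33.8%) were under 0.25 of the C57BL/6J mean, 244 (37.5%) were at 0.75 or more, and 186 lay between. At 58 of the 93 probes both kinds occurred among the 7 mixed tumours, at 9 all 7 tumours were at 0.75 or more, and at 0 were all 7 under 0.25. A18 had the most low values, 51 of 93, and A292 and A394 the fewest, 21 each. A390 had the most high values, 48. For the lowered probes, of 552 values over 80 probes, 117 (21.2%) were under 0.25 and 281 (50.9%) at 0.75 or more, with both kinds at 37 probes. The difference between raised and lowered probes was not tested.

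The 14 raised probes that passed on the opposite side in the mixed tumours, where 1.21% of all probes were called lower, were named after their values were seen. They included 7 on chromosome 7, 4 on chromosome 8 and 1 each on chromosomes 9, 12 and 17, with mixed means from -1.96 to -0.67 and limma adjusted p from 0.0152 to 0.0489. At Lrrk1, a leucine-rich repeat kinase gene, the C57BL/6J tumours had 1.32, 1.44, 1.27 and 1.40. A18 (-3.69), A292 (-3.40), A382 (-3.24) and A394 (-3.26) were far below their neighbours, while 231 Trig (0.01), A202 (0.47) and A390 (0.49) were near or slightly above them. The mixed mean was -1.80 ± 2.00 (SD, n = 7, limma adjusted p 0.0289). No mixed tumour reached the lowest C57BL/6J value. Lrrk1 lost the call without A18, A292, A382 or A394 and with slide as a random block, a setting that also keeps only passage 8 of A382 (limma adjusted p 0.0740 to 0.0789), and with normexp its mean was -0.25, under the size minimum. This group of calls was fragile: 4 of the members were called on the opposite side without A18 and 4 without A394, 7 without A292, 8 each without A202 and without A382, 2 with slide as a random block and passage 8 of A382 alone, 6 with normexp and 8 without slide 1.

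The 7 probes on chromosome 7 lay between 38.8 and 111 Mb and had A292, A382 and A394 at the bottom with A18. At Uri1, which encodes a prefoldin-like chaperone, A18, A292, A382 and A394 stood at -1.65 to -2.02 and the other 3 mixed tumours at 0.01 to 0.33. The C57BL/6J tumours stood at 0.70 to 0.82. At the 2 probes of the sensory neuron receptor gene Mrgpra2b, next to each other at 54753531 and 54777889, the same 4 tumours stood at -1.37 to -2.87. The other 3 stood at -0.56 to 0.40 and the C57BL/6J tumours at 0.62 to 1.19. Klk14 and Rasip1 lie between these probes and were also named after their values were seen. Klk14 did not split this way: this kallikrein gene, at 50948819, had 0.31 to 0.79 in the mixed tumours and 0.53 to 0.63 in the C57BL/6J tumours. Rasip1, at 52885244, had the same 4 tumours near 0 (-0.15 to 0.06) and the other 3 at 1.31 to 1.70, against 2.03 to 2.38 in the C57BL/6J group.

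On chromosome 8 the low tumours changed along the chromosome. At Triml1 (44221009), a tripartite motif gene, A18, A202, A292 and A394 stood at -2.65, -2.65, -2.45 and -2.41. There A382 was at 0.97, within the C57BL/6J range of 0.84 to 1.12, and 231 Trig and A390 were at 0.00. Mfhas1 (36702395) had the same 4 tumours low, at -1.38 to -2.92, and A382 at 0.89. At Slc10a7 (81234913), a solute carrier gene, 231 Trig (-2.72), A202 (-3.27) and A394 (-2.56) were low and A18 was at -0.56. At Rnf150 (85488912) again 231 Trig (-2.03), A202 (-1.94) and A394 (-2.22) were low, and the other 4 mixed tumours were at -0.10 to 0.01 against 0.61 to 0.89 in the C57BL/6J tumours.

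Unnamed raised probes showed such low values too. At chr12:102597916-102597975 A18, A202, A390 and A382 stood at -3.11 to -3.93, 231 Trig and A292 at -0.36 and -0.40, and A394 at 1.12, inside the C57BL/6J range of 0.85 to 1.20. This probe passed, with a mean of -1.96 ± 2.03 (SD, n = 7, limma adjusted p 0.0217), and lost the call without A18, A202, A390, A382 or slide 1, with the slide block and A382 passage 8 alone, and with normexp (limma adjusted p 0.0561 to 0.274). At chr3:144448091-144448150, beside the chloride channel regulator gene Clca3a2, 231 Trig (-4.09), A202 (-4.84) and A390 (-3.29) were low and the other 4 mixed tumours were at 0.31 to 0.47, against 1.12 to 1.36 in the C57BL/6J group (mixed mean -1.53 ± 2.42, SD, n = 7, limma adjusted p 0.102). At chr14:112068704-112068763 A18 (-3.65), 231 Trig (-3.76), A292 (-1.95) and A382 (-1.93) were low, and A202 and A390 were at 0.75 and 1.06 (mean -1.31, limma adjusted p 0.0938). It passed without A390 (-1.71, limma adjusted p 0.0406) and turned to 0.037 with normexp.

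The lowered probes had a median C57BL/6J mean of -0.80, from -2.69 to -0.53, with 80 at -1 or below and 8 at -2 or below. In the mixed tumours 169 of the 253 (66.8%) passed limma's test on the negative side, against 492 of all autosomal probes (1.21%). No lowered probe passed on the positive side, where 331 of all probes (0.813%) did, and 84 did not pass, of which 42 had an adjusted p under 0.05 with a smaller mean. As said for the raised probes, such a p-value was common by itself among all autosomal probes. Their mixed means had a median of -0.62 and ran from -2.21 to 0.33.

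Dhdds, a subunit of the enzyme that makes dolichol precursors, was the most even of the strongly lowered probes. It stood at -2.21, -2.04, -2.16 and -2.35 in B86, B91, B96 and B76 and at -1.90, -2.11, -2.04, -2.25, -2.11, -2.13 and -2.26 in the mixed tumours in the order given above. All 11 were low and the groups overlapped (mixed mean -2.11 ± 0.12, SD, n = 7, limma adjusted p 2.77e-08). The signals were 2055 in the reference channel and 403 in the tumour channel on the C57BL/6J arrays. Adra2c, the alpha-2C adrenergic receptor gene, stood at -2.37, -2.10, -2.06 and -2.14 in the C57BL/6J tumours. In the mixed group A18 (-1.49), 231 Trig (-1.15) and A202 (-1.39), all on slide 1, were less low than A390 (-2.11), A292 (-2.35), A382 (-2.40) and A394 (-2.30), with a mean of -1.88 ± 0.52 (SD, n = 7, limma adjusted p 2.42e-05). B86, on the same slide, was at -2.37.

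The same order recurred at other lowered probes. Atp5pb, a subunit gene of ATP synthase, had -0.85 to -1.20 in the slide 1 mixed tumours and -1.60 to -1.75 in the other 4, with -1.56 to -1.75 in the C57BL/6J group (mixed mean -1.38 ± 0.36, SD, n = 7, limma adjusted p 1.87e-05). The cDNA AK046613 had -0.90 to -1.19 in these 3 tumours, -1.56 to -1.90 in the other 4 and -1.59 to -1.91 in the C57BL/6J group (mixed mean -1.44 ± 0.39, SD, n = 7, limma adjusted p 2.22e-05). AY512931 had -0.74, -1.49 and -0.49 in A18, 231 Trig and A202, -1.87 to -2.39 in the other 4 and -1.33 to -2.55 in the C57BL/6J tumours. Its mixed mean was -1.63 ± 0.76 (SD, n = 7, limma adjusted p 0.000327). Over all lowered probes the median of the mixed means was -0.52 for the slide 1 tumours and -0.63 for those on the other slides, and over the raised probes 0.49 and 0.58. The slide 1 tumours were not alike. Over the raised probes A18 had a median of 0.37, A202 0.52 and 231 Trig 0.59, against 0.58 to 0.63 in the mixed tumours on the other slides. Over the lowered probes they had -0.50, -0.49 and -0.60, against -0.63 to -0.70. Whether slide or the tumours themselves set the difference between slides cannot be told apart, since each tumour other than A382 was on 1 slide.

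Nxpe5 had -3.05, -1.53, -2.23 and -2.94 in the C57BL/6J tumours and -0.90 to -3.13 in the mixed ones (mean -2.21 ± 0.78, SD, n = 7, limma adjusted p 7.14e-05). Cpb1, the pancreatic carboxypeptidase B gene, had -2.39, -1.19, -1.53 and -2.32 and then -0.58 to -2.28 (mean -1.60 ± 0.57, SD, n = 7, limma adjusted p 7.73e-05). Both were low in all 11 tumours with a wide spread in each group. Tom1l1, an adaptor of endosomal sorting, behaved differently, with -3.17, -1.99, -2.53 and -3.09 in the C57BL/6J tumours but -0.01, 0.01, 0.01, -0.21, -0.20, -0.61 and -0.96 in the mixed tumours, from A18 to A394 in the same order. No mixed tumour reached the C57BL/6J range, and the mean of -0.28 ± 0.37 (SD, n = 7) did not pass (limma adjusted p 0.0611). Epb41l3, a membrane skeleton gene, had -1.71 to -3.13 in the C57BL/6J group. Of the mixed tumours, A292 (-2.02), A382 (-1.81) and A394 (-1.73) lay in that range, and 231 Trig and A390 were below -0.5, with A18 (0.03) and A202 (-0.23) nearer 0 (mean -1.04 ± 0.83, SD, n = 7, limma adjusted p 0.00620).

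The lowered probes whose mixed mean lay farthest from the C57BL/6J mean also held Cwh43, which acts on the lipid of glycosylphosphatidylinositol anchors. It had -1.27 to -2.06 in the C57BL/6J tumours and -1.58 in A390, but -0.44 to 0.45 in the other 6 mixed tumours. The unnamed probe chr7:61749340-61749399 had -0.61 to -1.19 in the C57BL/6J group. In the mixed group A18, A292, A382 and A394 stood at 0.56 to 0.78, the same 4 tumours that were low at Lrrk1, and 231 Trig, A202 and A390 at 0.21, -0.35 and -0.14. Mapk1ip1l had -1.18 to -1.23 in the C57BL/6J tumours and -0.58 to 0.57 in the mixed ones, with a mean of 0.01. None of these 3 passed (limma adjusted p 0.164, 0.0585 and 0.936).

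Most members stood alone. Among the raised probes 303 had no raised neighbour in probe order and 30 formed 12 clusters, 8 of 2 probes, 2 of 3 and 2 of 4. Among the lowered probes 237 were single and 16 formed 7 clusters, 6 of 2 and 1 of 4. Members in clusters thus made up 9.01% of the raised and 6.32% of the lowered probes. These shares exceed those of raised and lowered probes among all autosomal probes, given below. Of the named raised members, 186 had further probes of the same gene on the array, and 11 of these had a second raised probe. For comparison, 0.818% of all autosomal probes were raised and 0.621% lowered. The 315 further probes had a median C57BL/6J mean of 0.01, and at 18 of them the mean was past the threshold. For the lowered members the counts were 156 and 8, with a median of -0.02 over 243 further probes, 15 of them past the threshold.

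The longest lowered run held 4 probes over 49.1 kb of chromosome 1 (173444942 to 173494003), with Itln1, an intelectin that binds microbial sugars, and Cd244a, a receptor of natural killer cells. Averaged over the run, the C57BL/6J tumours stood at -1.36 to -1.49. Of the mixed tumours, 231 Trig (-1.75) and A292 (-1.37) were as low, A394 was at -0.68, and A18 (0.05), A202 (0.16), A390 (0.01) and A382 (-0.10) were at the level of their neighbours. Only the Itln1 probe shown above passed (mean -0.61 ± 0.74, SD, n = 7, limma adjusted p 0.0435), and it lost the call without 231 Trig, A292, A382 or A394 and with the slide block and A382 passage 8 alone (limma adjusted p 0.0502 to 0.120). The Cd244a probe was measured in 5 mixed tumours, with a mean of -0.47 ± 0.74 (SD, n = 5, limma adjusted p 0.133). The other 2 probes of Cd244a, farther along, were no members, with C57BL/6J means of 0.08 and -0.02. Some 1.7 Mb farther, at 175201181, the olfactory receptor probe Olfr418 divided the tumours alike, with 231 Trig (-0.96) and A292 (-1.01) at the C57BL/6J level of -0.98 to -1.09, A394 at -0.59, and A18, A202, A390 and A382 at -0.24 to 0.06.

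The raised run at Srp54a, a subunit gene of the signal recognition particle, AK021321 and Fam177a2 held 4 probes over 25.5 kb of chromosome 12 (56206091 to 56231639). Each of its 4 probes has 2 perfect matches in the genome, as the array files give it. Its C57BL/6J tumours stood at 0.90 to 1.02 and its mixed tumours from 0.09 in A18 to 0.91 in A390. The second Fam177a2 probe passed (mean 0.92 ± 0.28, SD, n = 7, limma adjusted p 4.00e-05), while the other 3 had adjusted p under 0.05 and means of 0.43, 0.44 and 0.47, 2 of them over 6 mixed tumours. Without A18, Srp54a (0.51), AK021321 (0.56) and the first Fam177a2 probe (0.53) passed. With A18 kept, AK021321 also passed with normexp (0.59) and with flagged spots kept (0.56), and the first Fam177a2 probe with normexp (0.54). Srp54a (0.50) and AK021321 (0.54) passed without slide 1, which holds A18. The other run of 4 lay at Synb, which encodes an envelope-derived placental protein, Entpd4, a nucleotidase gene, and AK031288 on chromosome 14 (69908873 to 69987015). There the C57BL/6J tumours stood at 0.65 to 0.91, A390 at 0.79, A202 at 0.62 and A394 at 0.52, and A18, 231 Trig, A292 and A382 at 0.13 to 0.16. The second Entpd4 probe passed (mean 0.56 ± 0.25, SD, n = 7, limma adjusted p 0.000352), with a mean of 0.49 without A390 and with an 11-probe window, under the size minimum. AK031288, with a mean of 0.48, lay just under that minimum and passed in 9 alternatives, with means of 0.50 to 0.52, among them a 41-probe window, normexp and the fit without slide 1.

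Smaller clusters were of both kinds. The 3 probes at AK019269 and the collagen gene Col5a1 on chromosome 2 (27741054 to 27881390) were even, at 0.81 to 0.88 in the C57BL/6J tumours and 0.67 to 0.88 in the mixed ones, and all 3 passed. The lowered pair at the schlafen gene Slfn8 on chromosome 11 was also low in all 11 tumours, at -0.94 to -1.33 and -0.73 to -1.46, and both probes passed. The pair at the class I gene H2-T3 and the cDNA AK153910, which lie 588 bases end to end on chromosome 17 (36326541 to 36327128), divided the mixed tumours. It stood at -0.76 to -1.06 in the C57BL/6J tumours, at -0.94 in A292 and -0.51 in A390, and at 0.06 to 0.53 in A18, 231 Trig, A202, A382 and A394. Neither probe passed (limma adjusted p 0.835 and 0.832). At Ren2, a renin gene, the pair over 8.19 kb had -0.79 to -0.90 in the C57BL/6J tumours and -0.79 in A292, with the other 6 mixed tumours between -0.49 and -0.01. The helicase gene Ddx24 had 2 lowered probes that were even in all 11 tumours, with mixed means of -0.66 ± 0.09 and -0.67 ± 0.06 (SD, n = 7, limma adjusted p 3.47e-06 and 1.44e-06).

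Raised and lowered probes differed in which channel stood apart. The channel values below are log2 signals after adjustment for GC content, again minus the median of the window, and their median over all autosomal probes on the mixed arrays was -0.01 in each channel. Probe brightness itself varies, with an SD of 0.82 over all probes. At the raised probes the reference channel had a median of -0.76 on the mixed arrays and -0.76 on the C57BL/6J arrays. It was at -1 or less at 132 of 333 (39.6%) on the mixed arrays, against 12.2% of all probes. The tumour channel at these probes had a median of 0.02 on the C57BL/6J arrays and -0.28 on the mixed ones, with 77 (23.1%) at -1 or less against 13% of all probes, and 16 (4.80%) at 1 or more against 7.59%. So in the C57BL/6J tumours the tumour channel of a typical raised probe was close to its neighbours and the reference channel was the dimmer one.

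At the lowered probes the reference channel was brighter than its neighbours, with medians of 0.45 on the C57BL/6J and 0.43 on the mixed arrays, and 71 of 253 (28.1%) were at 1 or more on the mixed arrays against 8.17% of all probes. The tumour channel was dimmer, with medians of -0.34 and -0.21, and 61 (24.1%) were at -1 or less against 13%. That the tumour channel was the dimmer of the 2 on the C57BL/6J arrays follows from the rule here too. The reference channel moved little between the 2 groups of arrays, by a median of 0.08 in size at raised and at lowered probes, and the tumour channel by 0.27 and 0.20. These compare with 0.06 and 0.08 over all probes. At strong raised probes, mixed values under 0.25 of the C57BL/6J mean had a median tumour channel of -1.58 and those at 0.75 or more -0.14, while the reference channel was at -1.33 and -1.52. These values were sorted by the ratio of the 2 channels, so the lower tumour channel of the first class follows in part from the sorting. Single members differed on the C57BL/6J arrays: Tom1l1 had its reference at 0.09 and its tumour channel at -2.48, and Adra2c had a reference channel of 2.70.

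At nearly all members both channels were flagged as well above background on every C57BL/6J array. That flag does not mean a bright signal. At Lrrk1 the tumour signal on the mixed arrays had a geometric mean of 66.7, against tumour-channel medians of 1019 to 1201 per array. On none of the C57BL/6J arrays was the reference channel well above background at 2 raised probes, the unnamed probes chr9:39216497-39216556 and chr16:45530236-45530295. Their tumour signals were at least 8.04-fold and at least 10.1-fold higher, taking for the dim channel of each array its own signal or, where higher, the lowest signal that was well above background there. The second had a mixed mean of 2.41 ± 1.39 (SD, n = 7, limma adjusted p 0.00109), and with normexp, which adds an offset of 50 to both channels, it was 0.13 and did not pass (limma adjusted p 0.247).

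Each mixed tumour shared part of the pattern. The share of raised probes at 0.5 or more was lowest in A18 (39.8%), followed by A202 (51.5%), and ran from 59.5% in A390 to 65.2% in A292 in the other 5, while 1.07% to 2.42% of all autosomal probes passed that line in the 7 tumours. For the lowered probes the shares were 49.4% in A18, 49.6% in A202, 58.2% in 231 Trig and 68.8% to 74.3% in A390, A292, A382 and A394, against 1.56% to 3.85% of all probes. By number of mixed tumours past 0.5, 75 raised probes had all 7 (85 of all autosomal probes did, 0.209%), 41 had 6, 25 had 5, 27 had 4, 64 had 3, 45 had 2, 34 had 1 and 22 had 0. Of the lowered probes 64 had all 7 (90 of all probes, 0.221%), 40 had 6, 40 had 5, 22 had 4, 20 had 3, 33 had 2, 22 had 1 and 12 had 0. The raised counts thus had 2 peaks, at 3 and at 7 tumours, and the lowered counts rose toward 7 with a smaller peak at 2. The SD over the tumours had a median of 0.26 at raised probes in the mixed group and 0.10 in the C57BL/6J group. Over all autosomal probes it was 0.10 and 0.09. In the C57BL/6J group the rule itself asks for 1 sign and a size of 0.5 or more in all 4 tumours. A mixed value was missing for at least 1 tumour at 23 members.

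The mixed mean was nearer 0 than the C57BL/6J mean at 271 of 333 raised probes (81.4%) and at 215 of 253 lowered ones (85.0%). The median difference, mixed minus C57BL/6J, was -0.31 for raised and 0.19 for lowered probes. Since the C57BL/6J values chose the members, a shift toward 0 follows in part from the choice, and no test was made. The 2 passages of A382 differed at the members by a median of 0.07 in size for raised and 0.08 for lowered probes, against 0.06 over all probes, and had the same sign at 321 of 333 and 246 of 253.

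Members were unevenly placed along the genome. Chromosome 11 carried 7.31% of autosomal probes and 16.7% of the members, 52 raised and 46 lowered, so that 3.29% of its probes were members against 1.29% elsewhere. It also held 5 of the 9 bins of 10 Mb with 10 or more members, out of 258 bins with a median of 1. The fullest bin, however, was chromosome 1 from 170 to 180 Mb, with 12 raised and 9 lowered among 231 probes (9.09%), and 71 bins had 0 members. Chromosomes 15 (0.429%) and 19 (0.526%) had the smallest shares. Another member lay within 1 Mb of 65.8% of raised and 56.5% of lowered probes, against 42.4% of all autosomal probes. A raised probe had a lowered one within 1 Mb in 39.9% of cases, against 24.7% of all probes, so both kinds met in the same regions. An example chosen after its values were seen is Olfr745, with a lowered probe at chr14:51262595-51262648 (C57BL/6J mean -1.44, mixed mean -0.83) and a raised one at chr14:51262865-51262924 (0.67 and 0.36).

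Strong members that lay close together tended to divide the mixed tumours alike. In this description, also chosen after the values were seen, a tumour counted as high at 0.5 or more of the C57BL/6J mean, and only probes with both high and low tumours were taken, 72 raised and 57 lowered. For pairs of raised probes under 5 Mb apart, the 7 tumours were in the same class in 84.2% of comparisons (38 pairs), against 63.3% at 5 Mb or more on the same chromosome (170 pairs) and 52.3% on different chromosomes (2348 pairs). For lowered probes the shares were 79.8% (12 pairs), 63.8% (92 pairs) and 62.2% (1492 pairs). Pairs share probes and tumours, so they are not independent, and many of the close pairs came from a few regions of chromosomes 1 and 12. All 7 tumours were in the same class in 11 of the 38 close raised pairs and 4 of the 12 lowered ones. On chromosome 11 some close pairs agreed in only 3 tumours, such as Zfp672 with AK182289 and AF045252 with BC062114. An instance of full agreement is chromosome 9, where the olfactory receptor probe Olfr918 (38481022) and the unnamed probe at 39216497 were in the same class in all 7 tumours. Olfr918 had 1.73 to 2.91 in the C57BL/6J group, 1.77 in 231 Trig, 2.27 in A202 and 1.98 in A382, and -0.06, 0.44, -0.45 and -0.60 in A18, A390, A292 and A394.

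The median GC content was 36.7% for raised, lowered and all probes alike. The site AGCT, read on both strands since it is its own reverse complement, stood in 0 raised and 1 lowered probe, against 49 of all 40726 (0.120%), and GTAC likewise in 0 and 1 against 30 (0.0737%). More than 1 perfect match in the genome, as the files give it, was listed for 8 raised (2.40%) and 2 lowered probes (0.791%) against 63 of all (0.155%). Probes with no gene name made up 23.4% of raised and 11.1% of lowered members against 14.7% of all. Whether named probes lie in exons or introns was not analysed here.

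Gene families known to vary between mouse strains held from 0 to 11 members each, and most of them have few probes on the array. Of 666 olfactory receptor probes 7 were raised (1.05%) and 4 lowered (0.601%), close to the shares of all probes. Of 9 Klra probes 1 was raised (11.1%), of 27 Tas2r probes 1 (3.70%) and of 10 Skint probes 1 (10%), against 0.818% of all probes. Of 12 schlafen probes 1 was lowered (8.33%), of 21 H2 probes 2 (9.52%) and of 5 Cd244 and intelectin probes 3 (60%), against 0.621% of all probes. These shares rest on 1 to 3 members each, and the families were listed with earlier results known. Of 109 cytochrome P450 probes 2 were raised and 1 lowered, of 506 zinc finger (Zfp) probes 5 raised and 1 lowered, and of 24 sulfotransferase probes 1 raised. Families with 0 members were the vomeronasal receptors (65 probes), serpins (62), Nlrp and Naip genes (34), defensins (30), Ifi genes (30), Ugt genes (21), other Klr genes (18), Ceacam and Psg genes (16), immunoglobulin and T cell receptor genes (4) and Fpr genes (3).

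Among these, Tas2r120, a bitter taste receptor gene, had 0.94, 0.84, 0.95 and 0.95 in the C57BL/6J tumours, 0.77 to 1.18 in 6 mixed tumours and 0.01 in A202 (mean 0.83 ± 0.38, SD, n = 7, limma adjusted p 0.000339). Skint4, of a family of immunoglobulin-like proteins of skin and thymus, had 0.66 to 0.87, then 0.72 to 0.95 in 6 mixed tumours and 0.00 in A18 (mean 0.73 ± 0.33, SD, n = 7, limma adjusted p 0.000316). It lost the call with an 11-probe window (0.41). In both, a single mixed tumour stood at the level of its neighbours. H2-Eb2, a class II gene, was low in all 11 tumours (-1.12 to -1.91 and -0.69 to -1.81), with a mixed mean of -1.42 ± 0.40 (SD, n = 7, limma adjusted p 2.46e-05). The sulfotransferase Sult1b1 (0.74 ± 0.19, limma adjusted p 2.36e-05) and the P450 gene Cyp3a13 (0.83 ± 0.37, limma adjusted p 0.000254) passed as well (SD, n = 7), while Cyp39a1, an oxysterol hydroxylase, had a mixed mean of 0.31 and Cyp2r1, a vitamin D hydroxylase, one of -0.38, both under the size minimum. The zinc finger probes Zfp672 (0.34), Zfp874a (0.37) and Zfp369 (-0.44) did not pass, the last passing without A18 (-0.51), without slide 1 (-0.53) and with normexp (-0.56). Zfp672 turned to -0.11 with normexp.

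Nrg1, the neuregulin gene that the transgene carries an isoform of, was looked up whatever its values. The 2 probes were no members, with C57BL/6J means of 0.00 and -0.26 and mixed means of -0.04 and -0.08. Nnt was looked up with the strain labels in mind, since a deletion in this gene is known from C57BL/6J mice. Its 2 probes had C57BL/6J means of -0.03 and 0.14 and mixed means of -0.06 and 0.20 and were no members. Which exons they cover was not analysed here, so they may lie outside the deleted part and then check nothing. The reference is labelled C57BL/6J as well, so a ratio near 0 in the C57BL/6J tumours cannot check their strain. Only the mixed tumours could have differed. On the C57BL/6J arrays the signals were 1343 and 1744 in the reference channel and 1305 and 1905 in the tumour channel.

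The rule's threshold cut through a continuous range. Just inside it lay the raised probes Olfr1362 and AK133440, each with a smallest value of 0.50, and the lowered probes U55060 and Cdsn at -0.50. Just outside lay AY182512, with 0.4997 in B76, an unnamed probe on chromosome 16 with 0.498 in B91, and on the lowered side Cd300a and Ndfip2 with -0.499 in B91.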

How the data were processed

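Genomic DNA of 11 tumours was measured on 12 Agilent 2-colour mouse arrays. Scanner files were made with Agilent Feature Extraction 9.5 and coordinates are those of mm9, per the submitters' processing notes. Per the file headers, the deposited log10 ratio is the tumour (Cy5) over the reference (Cy3) processed signal, and the deposited intensity values are background-subtracted, with the dyes normalized linearly within each array. The deposited value table is the same log10 ratio, with a largest difference of 0. There were 43020 spots of 42404 probes, 40726 of them autosomal.

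The log10 ratio was converted to log2 and centred per array on the median, with no loess. Spots with outlier flags were set missing (0.723% to 1.99% on slide 1, 0.0604% to 0.107% on the others). Saturated spots numbered 0, and in each channel 99.6% or more of the spots lay well above background. The median of 21 probes (10 on each side) was subtracted, spots of 1 probe and the arrays of A382 being averaged. Members needed 0.5 in size in all 4 C57BL/6J tumours. Mixed tumours were tested against 0 over all autosomal probes with limma 3.58.1 in R 4.3.3 (a probe was called when its p, adjusted by Benjamini-Hochberg, was under 0.05 and its mean reached 0.5 in size). Channel deviations are log2 intensity, adjusted for GC content, minus the window's median. Other steps used Python 3.11.15, numpy 2.4.6 and pandas 2.3.3. The test and the rule were tried on simulated arrays, with 50 probes per offset size and noise drawn independently for each probe and array. Limma's test called 90% of offsets of 0.6 and 100% of those of 0.8, 1 and 2. The rule found 24%, 64%, 96% and 100% at these 4 sizes. No offset of a shared reference was simulated, so these rates may not hold for the real arrays. Each tumour but A382 had 1 array, so p-values measure the spread between tumours together with that between arrays and slides. The number of arrays limits the precision.

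The members and lists were chosen with earlier results of these data known. Probes are named by these rules: the 8 strongest raised and lowered, the 3 largest clusters each way, the probes nearest the threshold, the 5 each way whose mixed mean differed most, up to 2 per gene family, and a list of genes that includes Nrg1 and Nnt. One item that these rules name is not reported here. Other probes are said to be chosen after their values were seen or stand for the other clusters. Symbols were updated from RefSeq (GRCm38.p6), whose coordinates were not used. Alternatives were other windows, thresholds, normexp, loess, flagged spots kept, slide as a block, and each tumour left out.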

Additional observations from a re-analysis of the deposited data

Results flagged for a closer look

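Within the 2 groups, 128 sets of values of named probes and medians were examined for a tumour far from the others of its group, and 11 were found. Chance flags about 1 in 20 groups of unselected values, a rate that does not apply here, since the C57BL/6J values chose the members and many probes were named for extreme values. In the mixed group these were 231 Trig at the second Itln1 probe (-2.19) and at chr11:42187382-42187441 (1.13), and A202 at Tas2r120 (0.0087). They also included A18 at Skint4, at chr12:31341023-31341082 and at Zfp369, with 0 each, meaning that the probe was itself the median of its window. In the C57BL/6J group, as a description with no test, the tumour farthest from the rest was B91 at Tas2r120 (0.84) and at chr12:31341023-31341082 (3.24), and B86 at the first AK155119 probe (3.82), at AK011836 (3.76) and at Mapk1ip1l (-1.18). B86 is the only C57BL/6J tumour on slide 1, and the part of the slide was not tested.

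The rule covers autosomes only. On the X chromosome, outside the comparisons above, 12 of 1569 probes met the same criterion in all 4 C57BL/6J tumours, 8 raised and 4 lowered (0.765%).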

How the results depend on the processing

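Over 62 named probes, 980 checks under alternatives left 905 on the same side, 25 lost and 32 gained a call and 18 changed sign, and 25 of the 33 called probes were called under every alternative run. Of 207 checks of counts and medians, 175 stayed within the limits set.

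With a threshold of 0.4 there were 562 raised and 484 lowered members, of which 351 and 346 passed in the mixed tumours and 143 and 132 met the rule in all 7. At 0.75 the numbers were 114 and 88, 49 and 56, and 22 and 15. Over all probes 744 were called higher and 1050 lower at 0.4, 89 and 162 at 0.75, and 10486 and 10713 with no minimum size, while normexp gave 566 higher. Raised members called lower, 14 in the main setting, numbered 8 with an 11-probe window, 6 with normexp, 5 at 0.75, 2 with slide as a random block and A382 passage 8 alone, and 8 without slide 1. They ranged from 4 to 17 when 1 mixed tumour was left out, with 8 without A382. Medians of raised members on the mixed arrays were -0.83 in the reference channel with normexp. In the tumour channel they were -0.34 with no GC adjustment and -0.33 with normexp. These moves' cause was not tested.

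Signs changed at 5 probes. With normexp, chr14:112068704-112068763 went from -1.31 to 0.037, Zfp672 from 0.34 to -0.11 and H2-T3 from 0.05 to -0.017. Mapk1ip1l was -0.0016 with a 41-probe window, -0.0032 with loess, -0.0012 with that block and passage and -0.22 without slide 1, and ranged from -0.081 to 0.11 with 1 tumour left out. Without slide 1, H2-T3 was -0.31 and AK153910 -0.24. With 1 tumour left out they ranged from -0.037 to 0.22 and from -0.035 to 0.20, AK153910 being -0.00095 without A382.

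Members raised numbered 353 to 443 and lowered 282 to 352 when 1 C57BL/6J tumour was left out. Normexp shared 275 raised and 199 lowered members with the main setting, out of 418 and 320. No paired analysis was possible because the groups hold different tumours and the labels match none of them across groups. Where the reference signal was dim, the size of a high ratio is uncertain. At chr16:45530236-45530295 the mixed mean went from 2.41 to 0.13 with normexp.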
